A study of Mus musculus with 8 samples.

Results

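Carbonic anhydrases were followed through 7 genes, Car1, Car2, Car3, Car5a, Car8, Car13 and Car14, taken by symbol from the 52551 rows of each count file. The set was put together with the difference in Car3 between the groups already known, so the values of these 7 genes in PiZ and PiZ/Chop-/- livers are given as a description, with errors and without a p. The libraries came from livers of 6-week-old male C57BL/6 mice, 4 per group. All of them carried the PiZ transgene, which makes human alpha-1 antitrypsin (SERPINA1) in its Z form, a protein that misfolds and collects in the endoplasmic reticulum of hepatocytes. The PiZ/Chop-/- group also lacked Chop (Ddit3), the gene of a transcription factor made during endoplasmic reticulum stress. The transgene's promoter and the deleted part of Ddit3 were not given in the sources used here. A wild-type group that the submitters mention was not analysed here. The labels do not tie each library to a separate mouse, so errors and p-values stand for the spread among these libraries, which may be technical.

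Carbonic anhydrases turn carbon dioxide and water into bicarbonate and a proton, and back. In the liver they supply bicarbonate to the enzymes of urea, glucose and fat synthesis and help to move acid and carbon dioxide out of the cell. Members differ in place and activity: some are cytosolic, some lie in mitochondria or in the plasma membrane, and a few, Car8 among them, have lost the zinc site and do not act as enzymes. Car3 is a slow cytosolic form that is abundant in muscle, fat and rodent liver, where it is known to be higher in males and to depend on growth hormone.

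RNA was read from the 3' ends of transcripts, so a count stands for a transcript end and does not grow with transcript length. Levels are given as CPM, the counts of a gene scaled to the size of its library. Library totals ran from 1650260 to 3064385 counts, and the test took in 8669 genes. Ddit3 followed the labels in all 8 libraries, with 180 to 595 counts in PiZ and 3 to 9 in PiZ/Chop-/-, and SERPINA1 was present in all of them, with 1956 to 4482 and 964 to 1529 counts (log2 fold change -1.23, SE 0.22; edgeR, adjusted p = 0.00873). The hepatocyte genes Ahsg and Alb were abundant in both groups, Ahsg at 29123 ± 2984 and 20585 ± 2388 CPM and Alb at 14652 ± 3538 and 14525 ± 3075 CPM (PiZ first, SD, n = 4 each). PiZ libraries 1 and 4 correlated least with the rest of their group (mean r 0.931 and 0.914, against 0.932 to 0.951 in the other 6), and results on Car3 are also given without them.

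Car3 (ENSMUSG00000027559) dominated the family in every library. It stood at 1108, 3046, 2098 and 2496 CPM in PiZ libraries 1 to 4. In PiZ/Chop-/- libraries 1 to 4 it stood at 7547, 6474, 4854 and 4848 CPM. Every PiZ/Chop-/- library was thus above every PiZ library, and PiZ library 1 was the lowest of the 8. The PiZ mean was 2187 ± 818 CPM and the PiZ/Chop-/- mean 5931 ± 1321 CPM (SD, n = 4 each), a ratio of 2.71. The fitted log2 fold change was 1.44 (SE 0.28, 95% interval 0.85 to 2.03). These are bulk livers, in which more cells with Car3 and more Car3 RNA per cell cannot be told apart.

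**Figure D1:**
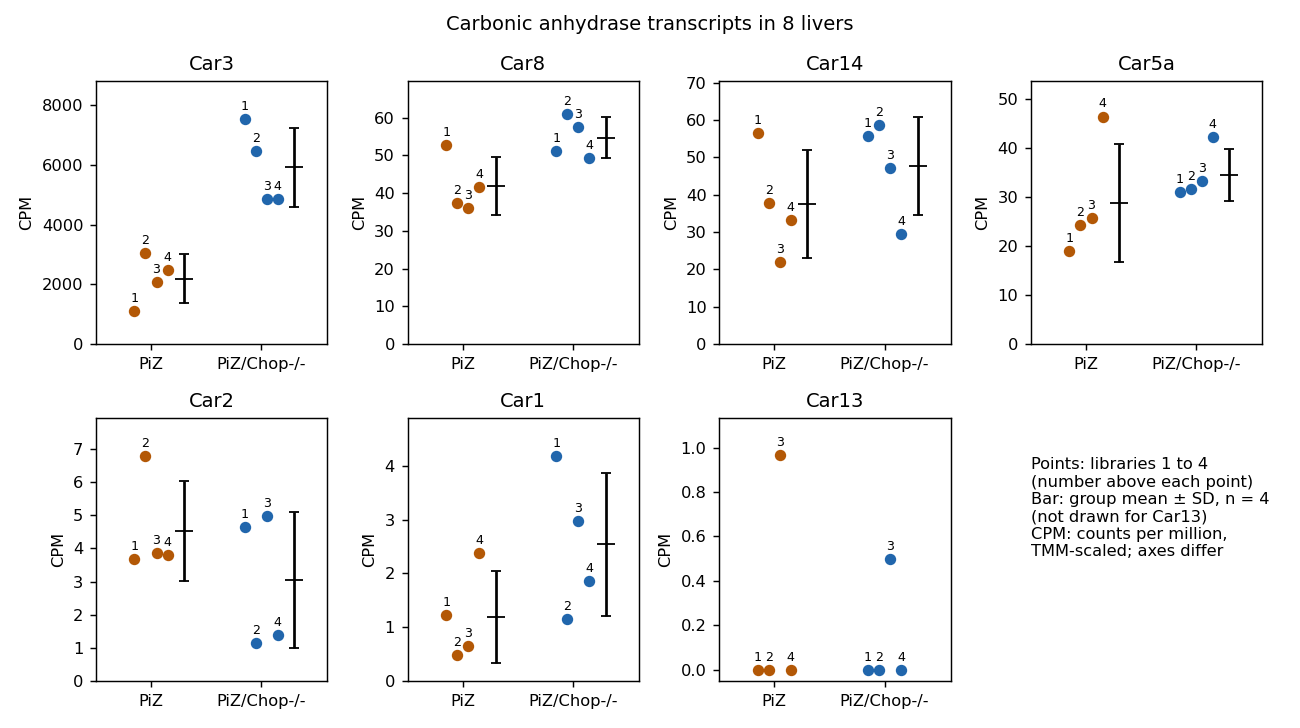
CPM (vertical axes, which differ between panels) of the 7 carbonic anhydrases in PiZ and PiZ/Chop-/- livers, with 1 numbered point per library and bars for the group mean ± SD (n = 4, not drawn for Car13). The Car3 groups do not overlap, from 1108 to 3046 CPM in PiZ and from 4848 to 7547 CPM in PiZ/Chop-/-, while the groups of the other 6 genes overlap.

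As a share of all counts, Car3 made up 0.109% to 0.297% of a PiZ library and 0.484% to 0.684% of a PiZ/Chop-/- library. Ranked by count, it was between the 40th and the 100th gene in PiZ libraries and between the 13th and the 20th in PiZ/Chop-/- libraries. Of the counts on the 7 genes, Car3 took 89.2% in PiZ library 1, 95.1% to 96.6% in the other PiZ libraries and 97.1% to 98.1% in PiZ/Chop-/- libraries. The spread of Car3 within the groups rested largely on PiZ library 1. Over all libraries its pooled SD of log2 CPM was 0.50, against a median of 0.30 over the 107 tested genes whose mean log2 CPM reached 10, and 81.3% of those genes had a lower SD. Without PiZ library 1, left out after its value was seen, the pooled SD was 0.30, against a median of 0.28 over the same genes, and 55.1% of them had a lower SD. The SD within PiZ was 0.63 on the log2 scale with that library and 0.27 without it, and the SD within PiZ/Chop-/- was 0.32.

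Car3 was among the 89 of 8669 genes called between the groups (1.03%, of which 0.335% higher and 0.692% lower in PiZ/Chop-/-; edgeR, adjusted p below 0.05), and the other members with enough counts, Car5a, Car8 and Car14, were not. This count of 1 in 4 restates the choice of the set and is not read further. Car3 was likewise the 1 member of 7 whose groups did not overlap, where 7.88% of tested genes had such groups, 3.66% with PiZ/Chop-/- higher. Without PiZ library 3 or PiZ/Chop-/- library 1, Car3 was not among the genes called, at log2 fold changes of 1.42 (SE 0.33) and 1.30 (SE 0.29). Its log2 fold change was 1.21 (SE 0.24) without PiZ libraries 1 and 4 and 1.17 (SE 0.26) without PiZ library 1 and PiZ/Chop-/- library 2.

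**Figure D2:**
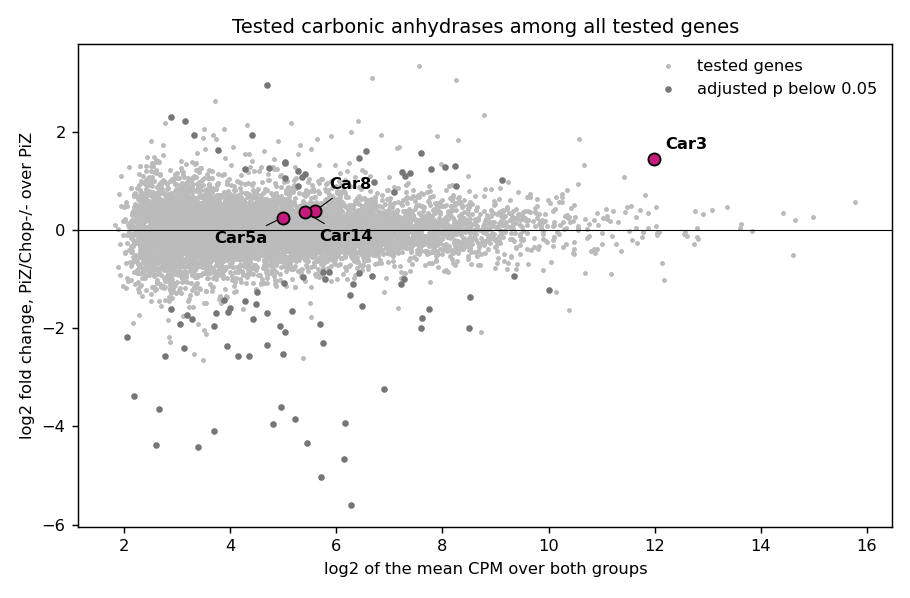
Fitted log2 fold change of PiZ/Chop-/- over PiZ (vertical axis) against the log2 of the mean CPM over both groups (horizontal axis), 1 point per tested gene, with darker points for genes with adjusted p below 0.05 and large points for Car3, Car5a, Car8 and Car14. Car3 lies at 1.44 among the most abundant genes, and Car5a, Car8 and Car14 lie together between 0.26 and 0.39 at a far lower level.

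Car8, which binds the inositol trisphosphate receptor and has no carbonic anhydrase activity, was the next in level. Its CPM was 52.9, 37.4, 36.0 and 41.8 in PiZ libraries 1 to 4. The PiZ/Chop-/- libraries held 51.1, 60.9, 57.6 and 49.4 CPM, so that PiZ library 1 lay among them and the other PiZ libraries below. Means were 42.0 ± 7.65 and 54.8 ± 5.43 CPM (SD, n = 4 each), with a log2 fold change of 0.39 (SE 0.20, 95% interval -0.037 to 0.81). Of the 4 tested members Car8 varied least within the groups, with a pooled SD of 0.20 on the log2 scale.

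Car14, an enzyme anchored in the plasma membrane with its active site outside the cell, had a similar level and a wider spread. PiZ libraries 1 to 4 held 56.6, 37.9, 21.9 and 33.2 CPM. The PiZ/Chop-/- libraries held 55.8, 58.6, 47.2 and 29.4 CPM, and the groups overlapped over most of their range. The means were 37.4 ± 14.5 and 47.7 ± 13.2 CPM (SD, n = 4 each) and the log2 fold change 0.37 (SE 0.29, 95% interval -0.24 to 0.97). On the opposite strand Car14 overlaps Aph1a, a subunit of gamma-secretase that had 83 to 236 counts per library and a log2 fold change of 0.38 (SE 0.24; edgeR, adjusted p = 0.536). A strand setting for the counting was not given in the sources used here. Reads where the pair overlap therefore cannot be told apart.

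Car5a, the mitochondrial form that supplies bicarbonate to Cps1 and Pcx, stood at 19.1, 24.3, 25.7 and 46.5 CPM in PiZ libraries 1 to 4. In PiZ/Chop-/- it stood at 31.1, 31.6, 33.3 and 42.4 CPM. Library 4 was the highest of either group, and the PiZ/Chop-/- values fell inside the PiZ range. Means of 28.9 ± 12.1 and 34.6 ± 5.27 CPM (SD, n = 4 each) gave a log2 fold change of 0.26 (SE 0.27, 95% interval -0.31 to 0.82). Both genes that overlap the Car5a span on the other strand, Gm20388 and BC048644, had 0 counts in all libraries.

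**Figure D3:**
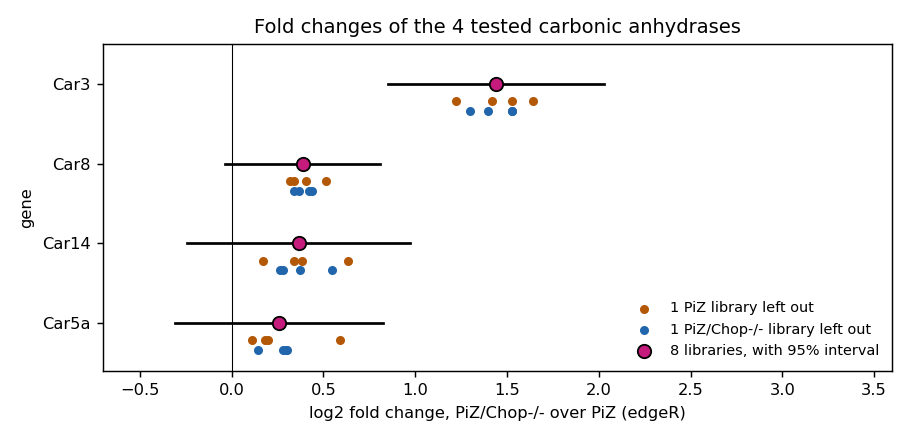
Fitted log2 fold change (horizontal axis) of the 4 carbonic anhydrases with enough counts, as large points with 95% intervals for all 8 libraries and small points for fits with 1 library left out. The Car3 values run from 1.22 to 1.64 over the fits with 1 library left out, and those of Car5a, Car8 and Car14 run from 0.11 to 0.63.

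The intervals of Car5a, Car8 and Car14 all hold 0, and they also reach to 0.82, 0.81 and 0.97, so that rises of about such a size are not shut out by these libraries. Of the 4 fitted values Car3 had the highest in each of the 20 alternative fits. All 4 lay above 0 in these fits, against a median of -0.0016 and 49.8% above 0 over all tested genes. Because the set was chosen on this contrast, that order is a description of these libraries.

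Car1, Car2 and Car13 had too few counts to be tested. Car2, the fast cytosolic enzyme of red cells, bile ducts and many other cells, had 6, 14, 12 and 8 counts in PiZ and 10, 2, 10 and 3 in PiZ/Chop-/- libraries. The corresponding levels were 4.54 ± 1.51 and 3.04 ± 2.05 CPM (SD, n = 4 each). Car1, the second enzyme of red cells, had 2, 1, 2 and 5 counts in PiZ and 9, 2, 6 and 4 in PiZ/Chop-/-, at 1.18 ± 0.86 and 2.54 ± 1.33 CPM. Car13, another cytosolic form, had 3 counts in PiZ library 3, 1 count in PiZ/Chop-/- library 3 and none elsewhere. The limit that a count of 0 allows, 3 counts, was 0.965 to 1.85 CPM across libraries, counting error alone, so Car13 and most Car1 values lay near it. The groups overlapped for all 3 genes.

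Levels in PiZ followed the order Car3, Car8, Car14, Car5a, Car2, Car1 and Car13. Car3 was clear of all the rest in every library, where the other 6 genes together came to 89.1 to 133.5 CPM (PiZ) and 124.4 to 153.5 CPM (PiZ/Chop-/-). Car8, Car14 and Car5a overlapped one another in PiZ and have no order there beyond their spread. In PiZ/Chop-/- Car8 lay above Car5a in every library, from 49.4 to 60.9 against 31.1 to 42.4 CPM, and Car14 overlapped both. Car2 was clear of Car5a in both groups and clear of Car1 in PiZ, where Car2 ran from 3.69 to 6.80 CPM and Car1 from 0.486 to 2.37 CPM. In PiZ/Chop-/- Car2 and Car1 overlapped, from 1.15 to 4.96 and from 1.15 to 4.18 CPM.

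Car13, Car1, Car3 and Car2 lie next to each other on chromosome 3 between 14641727 and 14900770 (mm10), a stretch of 259044 bases. Car3, on the plus strand at 14863512 to 14872523, has 7 exons, 780 coding bases without the stop codon and an annotated 3' UTR of 865 bases, from which most reads of this method come. Car2 begins 13749 bases beyond the end of Car3 on the same strand (14886273 to 14900770). The pseudogene Gm5843, between Car13 and Car1, had 0 counts in every library. Car1 lies on the minus strand at 14766216 to 14808368, and Car13 on the plus strand at 14641727 to 14663002. The high level of Car3 was thus not shared by the genes beside it: over the 8 libraries Car3 had 67548 counts, Car2 had 65, Car1 had 31 and Car13 had 4. Car14 lies on the same chromosome at 95897768 to 95904691, Car8 on chromosome 4 at 8143362 to 8239041 and Car5a on chromosome 8 at 121916126 to 121944904, all 3 on the minus strand.

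The 9 carbonic anhydrases outside the set were scarce in these livers, and none had enough counts to be tested. Car5b, the second mitochondrial form, was the most abundant of them with 7, 8, 9 and 5 counts in PiZ and 10, 14, 14 and 9 in PiZ/Chop-/-, or 3.36 ± 0.89 and 5.96 ± 1.84 CPM (SD, n = 4 each), and its groups overlapped. Over the 8 libraries Car7 had 9 counts, Car11 had 6, Car6 had 5, Car9 had 4, Car12 had 3 and Car10 had 1. Car4, a membrane form of capillaries, and Car15 had 0. Summed over the 9 genes, the level was 3.32 to 5.145 CPM in PiZ libraries and 6.50 to 9.43 CPM in PiZ/Chop-/- libraries, most of it Car5b.

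Genes that work beside carbonic anhydrases showed few differences. Of 20 exchangers of bicarbonate and other anions, 6 had enough counts and none passed the test (median log2 fold change -0.12, with 2 of 6 above 0). The lowest p in this list was that of Slc4a2, a chloride and bicarbonate exchanger, at 26.0 ± 4.88 and 32.8 ± 7.03 CPM (SD, n = 4 each; log2 fold change 0.35; edgeR, adjusted p = 0.558), and next was Slc26a2, a sulfate carrier, at -0.36 (edgeR, adjusted p = 0.604). Slc26a1, another sulfate carrier and the most abundant of the list, stood at 293 ± 5.56 and 284 ± 1.66 CPM. Of 16 proton and lactate carriers 8 had enough counts and none passed (median -0.015, with 4 of 8 above 0), led by the sodium and proton exchangers Slc9a9 at 0.62 (edgeR, adjusted p = 0.450) and Slc9a8 at -0.27 (edgeR, adjusted p = 0.578).

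Enzymes that use bicarbonate did not pass the test either. All 9 had enough counts, 7 of them with values above 0 (median 0.15). Cps1, the first step of the urea cycle and a user of Car5a bicarbonate, stood at 531 ± 247 and 468 ± 67.6 CPM, and Pcx, which opens glucose synthesis, at 253 ± 39.6 and 287 ± 52.0 CPM (SD, n = 4 each). Acacb, an acetyl-CoA carboxylase of fat oxidation control, had 0.67 (edgeR, adjusted p = 0.321) and Mccc1, of leucine breakdown, 0.32 (edgeR, adjusted p = 0.608). Among 11 genes of ammonium handling, all with enough counts and a median of -0.19, 1 fell and none rose. That gene was Rhbg, an ammonia channel of pericentral hepatocytes, from 54.5 ± 7.84 to 17.1 ± 5.67 CPM (log2 fold change -1.66, SE 0.26; edgeR, adjusted p = 0.00353).

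**Figure D4:**
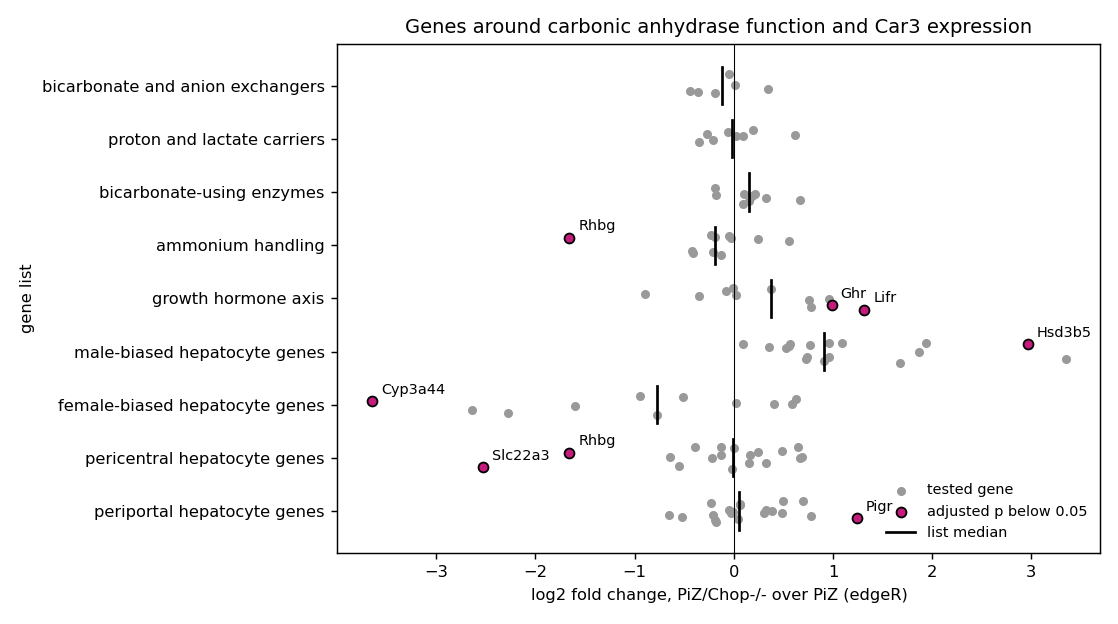
Fitted log2 fold change of PiZ/Chop-/- over PiZ (horizontal axis) for each tested gene of 9 lists (vertical axis), with black bars for list medians and named points for genes with adjusted p below 0.05. The lists of bicarbonate exchange, proton carriage and bicarbonate use hold no such gene, and the male-biased list has the highest median, 0.91.

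The known dependence of Car3 on growth hormone and sex gave a second set of lists, drawn up with earlier results of these data in view and therefore no independent support. Of 14 genes of the growth hormone axis 11 had enough counts, 2 rose and none fell (median 0.37). Ghr, the growth hormone receptor, rose from 69.8 ± 10.5 to 139 ± 18.7 CPM (n = 4 each, SD), by 0.99 on the log2 scale (SE 0.18; edgeR, adjusted p = 0.0139). Lifr rose from 173 ± 33.8 to 431 ± 54.9 CPM (1.31, SE 0.19; edgeR, adjusted p = 0.00230). Though listed here, Lifr is the receptor of leukaemia inhibitory factor and not of growth hormone. The groups of both genes were apart, with Ghr at 59.8 to 84.6 CPM in PiZ and 119 to 162 CPM in PiZ/Chop-/-, and Lifr at 143 to 221 and 376 to 507 CPM. The Ghr call was lost without PiZ library 2 (edgeR, adjusted p = 0.0580), PiZ/Chop-/- library 3 (0.0578) or PiZ/Chop-/- library 4 (0.0653), at log2 fold changes of 0.92, 0.97 and 0.91. Stat5b, the main relay of the receptor in liver, had -0.005 (SE 0.22) and Igf1, its secreted product, 0.37 (SE 0.19).

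Of 20 male-biased hepatocyte genes 17 had enough counts, all 17 had values above 0 (median 0.91), and 1 rose past the test. This was Hsd3b5, a steroid dehydrogenase, from 1.23 to 8.74 CPM in PiZ to 26.3 to 64.9 CPM in PiZ/Chop-/- (log2 fold change 2.96, SE 0.43; edgeR, adjusted p = 0.00353). The summed level of the list was 2225 CPM in PiZ library 1, the library lowest in Car3, and ran from 7499 to 9879 CPM in PiZ libraries 2 to 4. It was 15039 and 18887 CPM in PiZ/Chop-/- libraries 1 and 2. In PiZ/Chop-/- libraries 3 and 4 it was 8516 and 10109 CPM, in or near the range of PiZ libraries 2 to 4. The list median was not computed without PiZ library 1. Of 20 female-biased genes 11 had enough counts, 4 with values above 0 (median -0.78), and 1 fell: Cyp3a44, a cytochrome P450, from 11.8 ± 6.13 to 0.830 ± 0.590 CPM (n = 4 each, SD), with a log2 fold change of -3.65 (SE 0.59; edgeR, adjusted p = 0.00458). Its PiZ/Chop-/- libraries held 0 to 3 counts (0 to 1.39 CPM), near the limit that a count of 0 allows, so the size of this fall is uncertain. In PiZ it ran from 5.79 to 20.3 CPM, with library 1 the highest. The Cyp3a44 call was lost without PiZ libraries 1 and 4 (-3.06; edgeR, adjusted p = 0.0509). These genes belong to families with close copies (Cyp3a, Mup), so reads may have been shared or dropped among them.

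Among zonal genes the pericentral list, from the region where Car3 is known to be richest, was balanced. Of its 20 genes 18 had enough counts, 9 of them above 0 (median -0.009), and 2 fell, Rhbg and Slc22a3, an organic cation carrier that went from 54.1 ± 22.4 to 9.36 ± 2.63 CPM (n = 4 each, SD), a log2 fold change of -2.53 (SE 0.33; edgeR, adjusted p = 0.000804). Glul and Cyp2e1, the standard pericentral markers, had 0.25 (SE 0.19) and 0.16 (SE 0.21). All 20 periportal genes had enough counts, 11 above 0 (median 0.053), and 1 rose. This was Pigr, the carrier of polymeric immunoglobulins, from 130.4 ± 32.1 to 308 ± 87.1 CPM (1.24, SE 0.23; edgeR, adjusted p = 0.0139). The Pigr call was lost without PiZ library 3 (1.19; edgeR, adjusted p = 0.0634), without PiZ/Chop-/- library 1 (1.03; 0.0634), and without PiZ library 1 and PiZ/Chop-/- library 2 together (1.10; 0.0649). Over all 10 lists 103 of 150 genes had enough counts, and 4 rose and 3 fell (6.80%, against 1.03% of all tested genes). All 10 lists were chosen with earlier results of these data known, so the higher share may come from that choice and is not read further.

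Markers of tissues and cells known to be rich in carbonic anhydrases were mostly low. For fat, where Car3 is abundant, Adipoq, Lep and Retn had 0 counts in every library, 4 of 14 markers had enough counts and none passed the test, and the summed level was 126.8 to 220.7 CPM in PiZ and 94.3 to 187.2 CPM in PiZ/Chop-/-, mostly Lpl and Lipe. For skeletal muscle no marker of 16 had enough counts, Myh1, Myh2 and Myh7 were at 0, and the sum was 6.15 to 11.4 and 3.48 to 12.1 CPM. Red cell markers summed to 358 to 845.7 CPM in PiZ and 354.1 to 1469 CPM in PiZ/Chop-/-, led by Alas2 and Hbb-bs, with 6 of 19 genes tested and none past the test. Bile duct markers summed to 208.4 to 247.6 and 180.7 to 224.4 CPM, led by Aqp1 and Slc4a2, with 6 of 20 tested and none past the test. The part of these cells in the Car1, Car2 and Car3 values was not tested.

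Sums over markers of 2 other liver cell types did not overlap between the groups. Neither did the sums of the other carbonic anhydrases, the growth hormone list and the female-biased list. Of single tested genes 7.88% had groups that did not overlap, and no such share was computed for sums. The summed endothelial level was 626.8 to 714.1 CPM in PiZ and 828.6 to 904.6 CPM in PiZ/Chop-/-, and that of Kupffer cells and macrophages 1369 to 1910 and 1049 to 1253 CPM. No single gene passed the test among 19 endothelial, 20 macrophage, 13 stellate cell and 14 hepatocyte genes with enough counts. Of these, 14 endothelial genes had log2 fold changes above 0 (median 0.32), as did 2 macrophage genes (median -0.33), no stellate cell gene (median -0.28) and 7 hepatocyte genes (median 0.014). Of 3 tested neutrophil genes 1 fell, Lcn2 (log2 fold change -2.30; edgeR, adjusted p = 0.0113), which hepatocytes also make. The stellate sums were 1117 to 2360 and 1286 to 1871 CPM, the neutrophil sums 72.6 to 191.3 and 24.6 to 112.1 CPM, and the hepatocyte sums 66316 to 82380 and 60903 to 72322 CPM. The part of these cells in the Car3 difference was not tested.

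Within the groups, Car3 varied along with a set of liver transcripts. Likeness was measured as Pearson's r over the 8 libraries after the group mean of log2 CPM had been taken from each gene, which removes the difference between the groups. Over 3479 genes the median r was 0.056, and 5% of genes lay above 0.66 and 5% below -0.59. The highest values were those of Apoc3, an apolipoprotein of triglyceride-rich particles (0.97), Mup3, a major urinary protein (0.96), Pdcd4, an inhibitor of translation (0.95), Sult5a1, a sulfotransferase (0.94), and Alas2, an enzyme of haem synthesis (0.94). The lowest were those of Cd59a, a complement inhibitor (-0.90), Fgl1, a secreted fibrinogen-like protein (-0.90), and Rnase4, a secreted ribonuclease (-0.89). These genes were picked as extremes and share the libraries and their scaling with Car3, so no p is given.

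**Figure D5:**
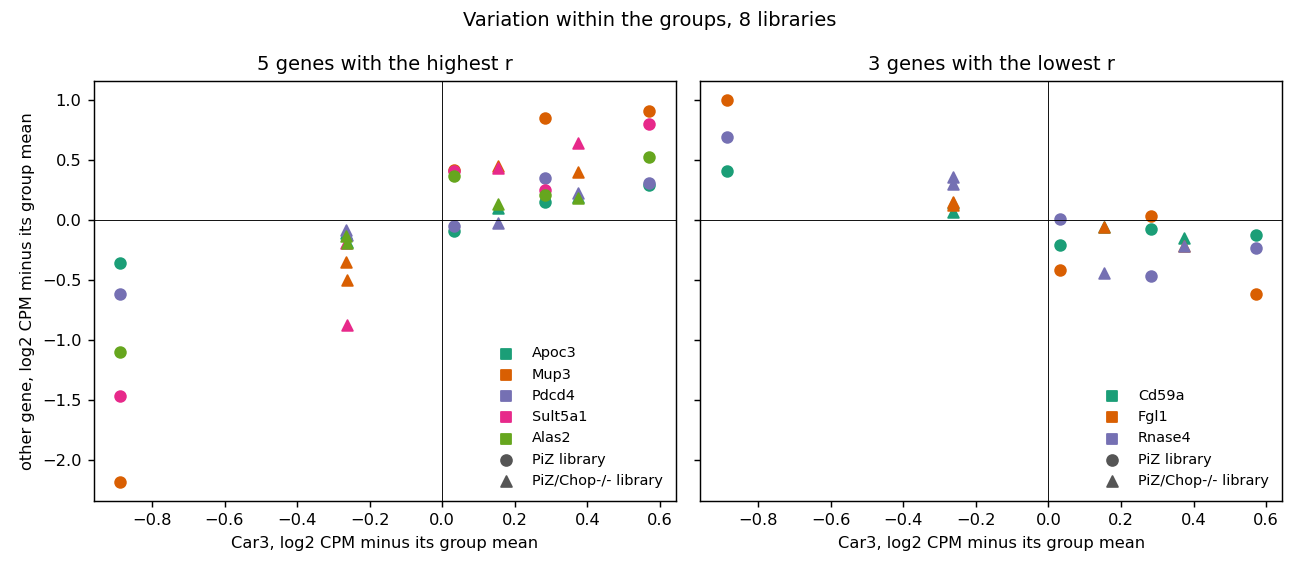
Log2 CPM minus its group mean for 8 genes (vertical axis) against the same for Car3 (horizontal axis), with circles for PiZ and triangles for PiZ/Chop-/- libraries. PiZ library 1 is the point farthest to the left, at -0.89 for Car3, and it lies low for the 5 genes with the highest r and high for the 3 with the lowest.

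PiZ library 1 carried much of this pattern for some genes. Without it r was 0.97 for Apoc3, 0.91 for Mup3, 0.83 for Pdcd4, 0.83 for Sult5a1 and 0.84 for Alas2, and it moved to -0.62 for Cd59a, -0.605 for Fgl1 and -0.75 for Rnase4. Mup3 stood at 109 CPM in PiZ library 1, at 666 to 936 CPM in the other PiZ libraries and at 1611 to 3106 CPM in PiZ/Chop-/-, where libraries 1 and 2 were the higher pair, as for Car3. Its log2 fold change was 1.86 (SE 0.61; edgeR, adjusted p = 0.265), and it passed the test in the 3 fits without PiZ library 1 (alone, with PiZ library 4 or with PiZ/Chop-/- library 2). Apoc3 stood at 905 to 1424 CPM in PiZ libraries and 1469 to 1909 CPM in PiZ/Chop-/- libraries (log2 fold change 0.51, SE 0.20; edgeR, adjusted p = 0.292). Fgl1 was the reverse, with 1337 CPM in PiZ library 1 against 434 to 684 CPM in the other PiZ libraries.

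The other tested members were less like Car3 than these genes. Within the groups r with Car3 was 0.35 for Car5a, -0.18 for Car14 and -0.65 for Car8, over the 8 libraries. Car8 and Car14 had an r of 0.78, Car5a and Car14 of -0.52, and Car5a and Car8 of -0.36. Over 7448 genes the most like Car5a were Serpina1b, a mouse alpha-1 antitrypsin with near-identical copies, and Mrpl54, a mitochondrial ribosomal protein (0.98 each). For Car8 they were the splicing factors Hnrnpm and U2af1 (0.98 each), and for Car14 the class I gene H2-Q7 and the dynactin subunit Dctn5 (0.96 each).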

How the data were processed

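Gene expression was measured in 8 liver libraries, 4 PiZ and 4 PiZ/Chop-/-, grouped and numbered by title. Libraries were made with the QuantSeq 3' mRNA kit and read for 75 bases from one end, per the labels' protocols. The authors deposited raw read counts by gene, 1 file per library, per the file headers. The submitters' processing notes name STAR, HTSeq and mm10, without tool versions. The annotation, the strand setting and the handling of multiply matching reads were not given in the sources used here.

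GENCODE mouse M21 gave symbols and positions and held 52403 of 52550 Ensembl IDs and all 7 members. The members and gene lists were chosen with earlier results of these data known. The test was edgeR 4.0.16 under R 4.3.3 (filterByExpr, minimum count 10, TMM, robust glmQLFit, glmQLFTest, Benjamini-Hochberg over 8669 genes, threshold 0.05). SE is the log2 fold change divided by the square root of F, and 95% intervals use the moderated degrees of freedom. CPM use TMM-scaled library sizes. Likeness used log2 CPM (prior count 2) over genes whose mean log2 CPM reached 5 for Car3 and 3 for the other members. The test and the likeness measure were also run on simulated data. The outcome, and with it the power of the test at this depth, is not given here. Alternatives were other scalings, DESeq2 1.42.0, limma-voom (limma 3.58.1), other filters, an ordinary in place of a robust fit, removal of the top 20 genes, a replicate block, and each library left out.

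The text names all members, other carbonic anhydrases with a count, Ddit3, SERPINA1, genes between Car13 and Car2, list genes past the threshold (up to 4 a list, or the 2 of lowest p), leading markers and the genes most and least like Car3 and the other members. Stat5b, Igf1, Glul, Cyp2e1, Slc26a1, Cps1, Pcx and Aph1a were added after their values were seen.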

Additional observations from a re-analysis of the deposited data

Results flagged for a closer look

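A library stood apart from the other 3 of its group in 3 of the 14 sets of 4 values examined, by the gap to its nearest neighbour as a share of the range. About 1 set in 20 is marked by chance alone where values are continuous, a rate that does not hold for sets of a few counts. Car2 was marked in PiZ, with a share of 0.946, because library 2 held 6.80 CPM (14 counts) and the others 3.69 to 3.86 CPM. Car13 was marked in both groups with a share of 1, from 3 counts in PiZ library 3 and 1 count in PiZ/Chop-/- library 3, with 0 counts in every other library. A share of 1 follows whenever only 1 library of a group holds a count. No Car3 value was marked: the shares were 0.511 in PiZ, for library 1, and 0.397 in PiZ/Chop-/-, for library 1.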

How the results depend on the processing

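The log2 fold change of Car3 moved by less than its pooled SD between replicates (0.50) in all 20 alternatives. That SD is larger than the SE of 0.28, so this is a loose criterion. The value ran from 1.35 to 1.51 over the other processing settings and from 1.22 to 1.64 with 1 library left out. It was 1.21 without PiZ libraries 1 and 4 and 1.17 without PiZ library 1 and PiZ/Chop-/- library 2. Car3 was called in 18 of the 20 alternatives. By the same loose criterion, the log2 fold changes of Car5a, Car8 and Car14 stayed within their spread in 20 of 20. The number of genes called was 201 with DESeq2 and 357 with no filter on low counts, against 89, and ran from 46 to 169 with 1 library left out: 53 without PiZ library 3, and 49, 169, 46 and 51 without PiZ/Chop-/- libraries 1, 2, 3 and 4. Of the list genes 11 were called with DESeq2 and 16 with no filter, against 7, and 6 to 9 with 1 library left out. DESeq2 and the fit with no filter were given 19847 genes. The number of genes over which DESeq2 adjusted its p-values was not recorded. With the replicate number as a block, 76 genes and 7 list genes were called and Car3 had 1.49. The labels do not say that same-numbered libraries share anything beyond the number. The deviations of same-numbered libraries from their group means had correlations of -0.051 to 0.049. The fits without PiZ libraries 1 and 4, and without PiZ library 1 and PiZ/Chop-/- library 2, were chosen after seeing the data and called 113 and 125 genes. The r of Apoc3 with Car3 was 0.96 to 0.99 with 1 library left out and 0.97 with a prior count of 0.5. Depth limits Car1, Car2 and Car13, for which no fold change was fitted.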

Other observations

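Inside the span of Car1 the annotation places Gm16399, a processed pseudogene on the same strand (14802356 to 14802574 of chromosome 3, mm10). It had 136 counts over the 8 libraries, more than the 31 of Car1, with PiZ at 7.85 ± 3.83 CPM, PiZ/Chop-/- at 8.04 ± 0.43 CPM (SD, n = 4 each) and a log2 fold change of 0.026 (SE 0.36; edgeR, adjusted p = 0.986).

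Alas2, listed as a red cell gene and among the genes most like Car3 within the groups, went apart from the globins. Its r with Car3 was 0.94, while Hba-a1, Hba-a2, Hbb-bs and Hbb-bt had -0.32, -0.42, -0.29 and -0.39 and Bpgm had -0.47 (8 libraries). Alas2 stood at 67.7 CPM in PiZ library 1, at 169.9 to 211 CPM in the other PiZ libraries and at 241 to 313 CPM in PiZ/Chop-/- (log2 fold change 0.79, SE 0.28; edgeR, adjusted p = 0.239). Hbb-bs had 150 to 675 counts in PiZ and 21 to 1127 in PiZ/Chop-/- libraries.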
